A study of Mus musculus with 6 samples.

Results

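The 43 genes described here are listed effector genes of the type I interferon response, chosen from such a list after leaving out the OAS, GBP, Slfn, Trim7-cluster and Ifi200 families. They are 43 of the 54532 genes that were counted. The study asked what the AP-1 factors c-Jun and JunB contribute to the transcriptome of type 1 conventional dendritic cells (cDC1), the dendritic cells that specialise in cross-presenting antigen to CD8 T cells. Bone marrow cells were grown with the cytokine FLT3L at 80 ng/mL for 8 days, cDC1 were sorted as CD24+ CD11c+ B220- CD115- CD172a- cells, and their polyadenylated RNA was sequenced. The comparison sets 3 c-Jun/JunB fl/fl libraries, which carry both floxed alleles and whose label names no Cre, against 3 c-Jun/JunB Δ/Δ Itgax-Cre libraries, called Δ/Δ below. Mice of both sexes, 8 to 16 weeks old and of a mixed 129 Sv × C57BL/6 background, were used across the study, and the age and sex behind each library were not given in the sources used here. The Cre is driven by Itgax, the gene of CD11c. The study places the loss of c-Jun/JunB in these mice in pre-cDC, the direct precursors of conventional dendritic cells. The libraries do not show when recombination took place, and the floxed parts of the genes were not given in the sources used here. Reads on genes amounted to 25860931, 26788296 and 23666519 in fl/fl 1, 2 and 3 and to 24429016, 21693217 and 22874838 in Δ/Δ 1, 2 and 3. Levels are in CPM, the reads of a gene per 1e6 reads of the TMM-scaled library.

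Type I interferon binds a receptor whose kinases activate a transcription factor complex that holds IRF9 and binds GAAA repeats in the promoters of interferon-stimulated genes. The effectors tag proteins with ISG15, bind or cut viral RNA, starve viruses of nucleotides, or stop virus entry and nuclear import. Many of them are also read at a low tonic level in cells that meet no virus, through weak constitutive signalling and through IRF7, which the pathway itself induces.

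The genes named in the labels were read first. Jun stood at 70.9, 52.5 and 63.1 CPM (fl/fl 1, 2, 3) against 48.2, 44.3 and 60.5 CPM (Δ/Δ 1, 2, 3). These ranges overlapped, and the difference did not pass (log2 fold change −0.29, SE 0.15, adjusted p = 0.345, from the quasi-likelihood F test of edgeR, adjusted by Benjamini-Hochberg over the 12894 genes tested, as for every adjusted p below where no other tool is named). Junb stood at 315, 274 and 413 CPM against 110.4, 171 and 212 CPM. All 3 Δ/Δ values lay under all 3 fl/fl values, with a log2 fold change of −1.02 (SE 0.25) and an adjusted p of 0.0729, which became 0.0359 without Δ/Δ 1. Reads outside a deleted part still count for a gene, so these totals do not measure how complete the deletion was. Itgax, the gene whose regulatory sequence drives the Cre, had 114, 128 and 153 CPM against 44.8, 55.1 and 69.0 CPM. It fell by 1.22 on the log2 scale (SE 0.17, adjusted p = 0.0147), with adjusted p of 0.0526, 0.0781 and 0.0505 without fl/fl 1, 2 and 3.

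Markers of the sorted cell type were present in every library. The 10 listed cDC1 markers summed to 8969, 9033 and 8976 CPM (fl/fl 1, 2, 3) against 7249, 8523 and 8070.1 CPM (Δ/Δ 1, 2, 3), with Wdfy4 the most abundant. Of the 10, 3 fell, namely the chemokine receptor gene Xcr1 (−1.42, adjusted p = 0.00812), the RNA sensor gene Tlr3 (−0.77, adjusted p = 0.0226) and Snx22 (−0.86, adjusted p = 0.0375). Without fl/fl 1 or fl/fl 2, 0 of the 10 passed in edgeR, with 5 lower and 1 higher at an unadjusted p under 0.05 in either fit, and 1 passed without fl/fl 3. DESeq2 passed 5 as lower and 1 as higher. The latter was Cadm1, which had 231, 213 and 228 CPM against 266, 268 and 305 CPM, higher in every Δ/Δ library (0.32, adjusted p = 0.0615, with 0.0340 without Δ/Δ 1 and 0.00405 in DESeq2). Irf8, which sets up the cDC1 fate, had 2773, 2709 and 2653 CPM against 2729, 2879 and 2776 CPM. The 9 cDC2 markers summed to 198, 216 and 304 CPM against 480.4, 564 and 660.3 CPM, and 3 of them rose, namely Cd209a, the most abundant of the list (2.25, adjusted p = 0.00556), Klf4 (0.97, adjusted p = 0.0321) and Cd4 (2.30, adjusted p = 0.0339). Leaving out Δ/Δ 3, fl/fl 1 or fl/fl 2 made this count 1, and leaving out Δ/Δ 1 made it 4. DESeq2 passed 5 of the 9 as higher and 0 as lower, and in edgeR 6 were higher at an unadjusted p under 0.05. Irf4 had 27.4, 32.1 and 43.9 CPM against 55.6, 71.9 and 120.1 CPM, higher in every Δ/Δ library. It missed the threshold (1.26, adjusted p = 0.0699, with 0.0150 without Δ/Δ 1 and 7.80e-05 in DESeq2). Among 9 monocyte and macrophage markers, which summed to 2450.2, 2787 and 2871 CPM against 3818, 3466 and 4312 CPM with Lyz2 on top, Ccr2 (0.96, adjusted p = 0.0130) and Adgre1 (0.91, adjusted p = 0.0317) rose, and 0 did so without fl/fl 2 (2 at an unadjusted p under 0.05) while leaving out Δ/Δ 3, fl/fl 1 or fl/fl 3 made it 1.

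Plasmacytoid dendritic cells make most type I interferon, and their 10 listed markers summed to 266, 247 and 248 CPM against 266, 308 and 318 CPM. The most abundant of them was Bst2, itself an interferon-stimulated gene, at 109, 102 and 89.1 CPM against 79.0, 70.5 and 77.6 CPM (−0.41, adjusted p = 0.0572, with 0.0410 without Δ/Δ 1 and 0.00388 in DESeq2). Ccr9 rose (1.41, adjusted p = 0.00333). Siglech had 7.79, 10.8 and 8.61 CPM against 19.7, 16.5 and 37.5 CPM, higher in every Δ/Δ library, and missed the threshold (1.44, adjusted p = 0.0571). It met the threshold without Δ/Δ 1, 2 or 3 (0.0269, 0.0263 and 0.0483) and in DESeq2 (7.38e-05), so that 2 of the 10 markers were higher in each of these fits. Neutrophil markers, 8 genes led by S100a9, summed to 4.20, 15.8 and 17.6 CPM against 0.852, 7.42 and 5.64 CPM, with Ly6g and Elane at 0 reads. The 6 B cell markers, led by Cd79b, summed to 30.9, 18.8 and 26.0 CPM against 12.8, 49.9 and 24.3 CPM, and the 7 T and NK cell markers, led by Cd3g, to 0.964, 1.00 and 1.10 CPM against 1.01, 1.03 and 1.06 CPM. Of these last 3 lists 0 genes passed in edgeR, with 1 neutrophil gene lower at an unadjusted p under 0.05 and 1 lower in DESeq2, and none of the B, T and NK cell genes under either tool. The part that other cell types may have in the values of the interferon-stimulated genes was not tested.

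The Δ/Δ libraries differed among themselves more than the fl/fl libraries did. Counts of 2 libraries of a genotype gave a chi-square per degree of freedom between 6.35 and 10.4 for fl/fl pairs, and between 27.9 and 38.5 for Δ/Δ pairs. Genes of mature dendritic cells (9 genes, Fscn1 on top) summed to 1163, 836 and 1013 CPM (fl/fl 1, 2, 3) against 347, 1941 and 519.6 CPM (Δ/Δ 1, 2, 3). Δ/Δ 2 thus read highest of the 6 and Δ/Δ 1 lowest. Immediate early genes (10 genes, Fos on top) summed to 227, 182 and 362 CPM against 304, 802 and 1080.2 CPM, and proliferation genes (6 genes, Mki67 on top) to 1093, 1007 and 751 CPM against 991, 411 and 259 CPM. Δ/Δ 1 lay within the fl/fl range in both lists and Δ/Δ 2 and 3 lay outside it. In these 3 lists 0 genes passed in edgeR, while 2 mature, 5 immediate early and 0 proliferation genes had an unadjusted p under 0.05 and DESeq2 passed 1, 2 and 0 of them. Without Δ/Δ 1, all 6 proliferation genes were lower and 7 immediate early genes higher at an adjusted p under 0.05, and without Δ/Δ 2, 4 mature dendritic cell genes were lower. Whether these states have a part in the values below was not tested.

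Of the 43 genes, 41 had enough reads to be tested, and 9 of these fell at an adjusted p under 0.05 and by at least 1 on the log2 scale, where 0.869% of the 12894 tested genes did so. At the adjusted p alone 12 were lower, against 1.85% of tested genes, and DESeq2's Wald test passed 21 as lower, against 3.86%. The genes called lower were Isg15, Ube2l6, Ifit2, Cmpk2, Parp12, Nmi, Rtp4, Xaf1 and Phf11b, and those that passed the adjusted p with a smaller change were Mx1, Parp14 and Pml. Ifi44l alone was called higher, under the rule that called 0.993% of tested genes higher (2.03% at the adjusted p alone). In 26 of the 41 tested members all 3 Δ/Δ values lay under all 3 fl/fl values, a pattern shown by 12.3% of tested genes, and in 3 (Samd9l, Ifi44 and Ifi44l) they lay above, against 13.7%. The median log2 fold change of the tested members was −0.57 (quartiles −1.20 and −0.24), also with Ifi44l set at its lower bound, and that of all tested genes was 0.00 (quartiles −0.16 and 0.16). By sign 37 of 41 were lower, or 90.2%, against 49.7% of tested genes. As the cells were measured in bulk, fewer cells that make an RNA and less of that RNA in each cell cannot be told apart.

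**Figure D1:**
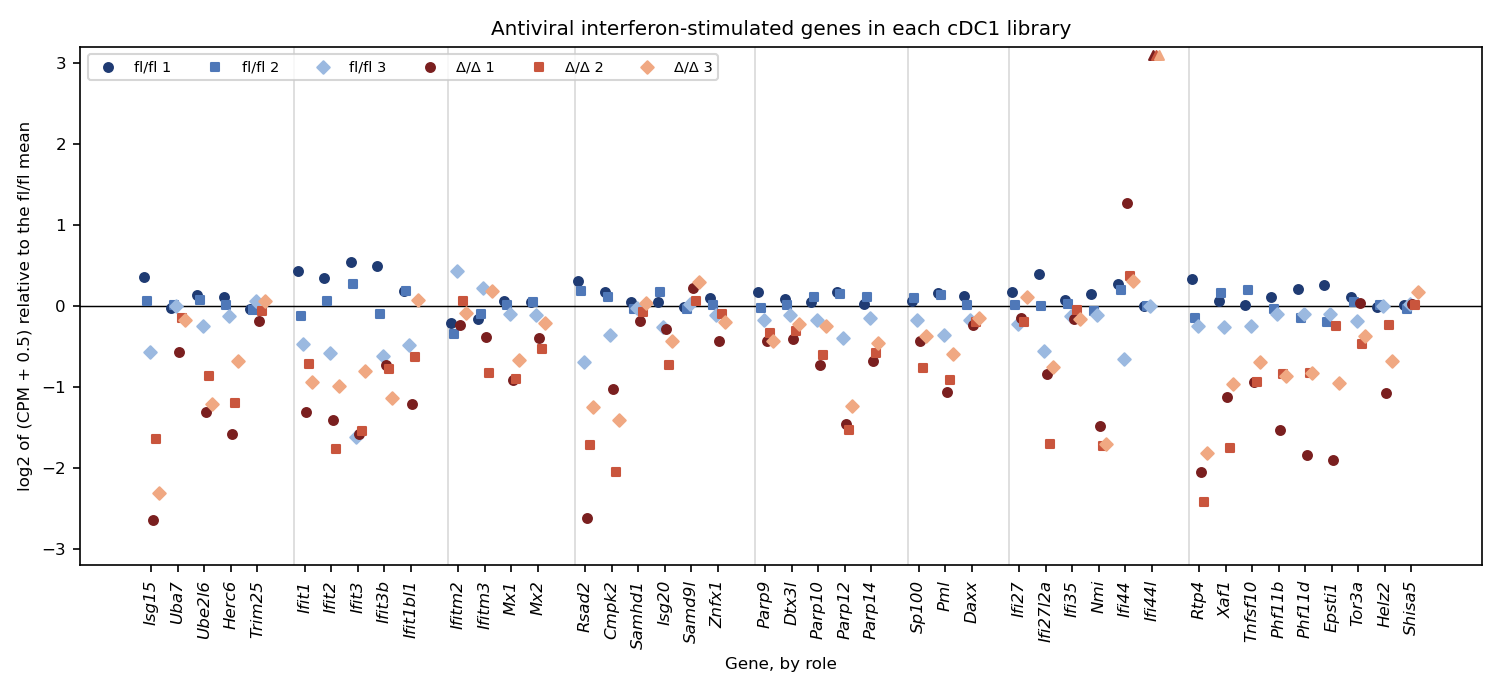
Level of each of the 43 genes in each library, as log2 of (CPM + 0.5) minus log2 of (fl/fl mean + 0.5), with genes on the horizontal axis in order of role, blue marks for fl/fl and red marks for Δ/Δ libraries, whose shapes tell replicates apart. The median offset of the tested members was 0.11, 0.02 and −0.17 (fl/fl 1, 2, 3) against −0.73, −0.63 and −0.43 (Δ/Δ 1, 2, 3), and triangles at the upper edge mark Ifi44l, whose Δ/Δ offsets of 7.25, 6.51 and 6.45 lie beyond the axis.

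Summed over the 43 genes, levels were 4715, 4526 and 4329 CPM (fl/fl 1, 2, 3) against 3650.4, 3634 and 4084 CPM (Δ/Δ 1, 2, 3). The members also moved together within a genotype, as the plot of their offsets by library shows. fl/fl 3 was the lowest fl/fl library for 30 of the 41 tested members, compared with 35.7% of all tested genes, and fl/fl 1 was the highest for 28, compared with 33.2%. Among the Δ/Δ libraries, Δ/Δ 1 was lowest for 22 members (34.4% of tested genes) and Δ/Δ 3 highest for 23 (34.6%). The median coefficient of variation of the tested members was 12.9% in fl/fl and 17.3% in Δ/Δ libraries, against 7.80% and 11.9% over all tested genes.

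Promoters were searched on both strands in a RefSeq table (GRCm38.p6) that reaches from 250 bases before to 50 bases after each start. Of the 43 genes 34 had an entry. Mx2, Tor3a, Parp9, Ifi27, Rtp4, Ifi27l2a, Parp14, Parp10 and Mx1 had no entry. A pair of GAAA with any 2 bases between them (TTTC with 2 bases between on the other strand), the core of the interferon-stimulated response element, was held by 10 of the 34, or 29.4%, against 3.99% of the 27025 genes in the table, which share 32851 promoters. These were Isg15, Ifit1, Ifit3, Ifit3b, Ifit1bl1, Ifitm2, Ifitm3, Rsad2, Phf11b and Shisa5. Ifitm3 and Shisa5 held it only in the 50 bases after the start, so that 8 members held it before the start, against 3.46% of genes. The STAT dimer motif TTCNNNGAA was held by 6 (17.6%) against 9.55% of genes, and 3 of the 6 held it only in the 50 bases after the start. The AP-1 motif TGANTCA, which Jun proteins bind, was held by 7 (20.6%) against 8.97%, namely Uba7, Ifit3, Ifit3b, Ifitm3, Rsad2, Ifi35 and Xaf1. A match of TTCNNNGAA overlapped a GAAA pair in Ifitm3 and Shisa5. A match is a run of letters and says nothing of binding in these cells.

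Isg15 and Phf11b are the called members whose promoter holds the GAAA pair, and Rsad2, Ifit1 and Ifit3, not called and chosen after their values were seen, are set beside them. Capitals mark the GAAA pair, read 5′ to 3′ on the strand of each gene, and every stretch lies upstream of the gene, outside all GENCODE exons and introns. That of Isg15 (chr4:156200835-156200924, minus strand) holds 3 overlapping matches, the nearest beginning 66 bases before the start. That of Phf11b (chr14:59341352-59341420, minus strand) holds 1, beginning 50 bases before the start. Those of Rsad2 (chr12:26456523-26456612, minus strand), Ifit1 (chr19:34640764-34640853, plus strand) and Ifit3 (chr19:34583367-34583456, plus strand) hold 1, 2 and 2 on the opposite strand.
Isg15: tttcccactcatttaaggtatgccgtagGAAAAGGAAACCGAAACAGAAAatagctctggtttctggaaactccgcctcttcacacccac
Phf11b: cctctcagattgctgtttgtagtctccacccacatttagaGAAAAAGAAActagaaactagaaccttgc
Rsad2: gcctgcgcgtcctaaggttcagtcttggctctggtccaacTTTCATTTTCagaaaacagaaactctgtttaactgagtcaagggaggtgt
Ifit1: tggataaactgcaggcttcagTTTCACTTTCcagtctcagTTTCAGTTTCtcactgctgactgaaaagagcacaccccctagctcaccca
Ifit3: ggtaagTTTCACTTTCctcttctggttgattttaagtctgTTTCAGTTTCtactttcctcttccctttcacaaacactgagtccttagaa
The 90 bases shown for Ifit3 occur unchanged before its near copy Ifit3b (chr19:34607763-34607852, plus strand).

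**Figure D2:**
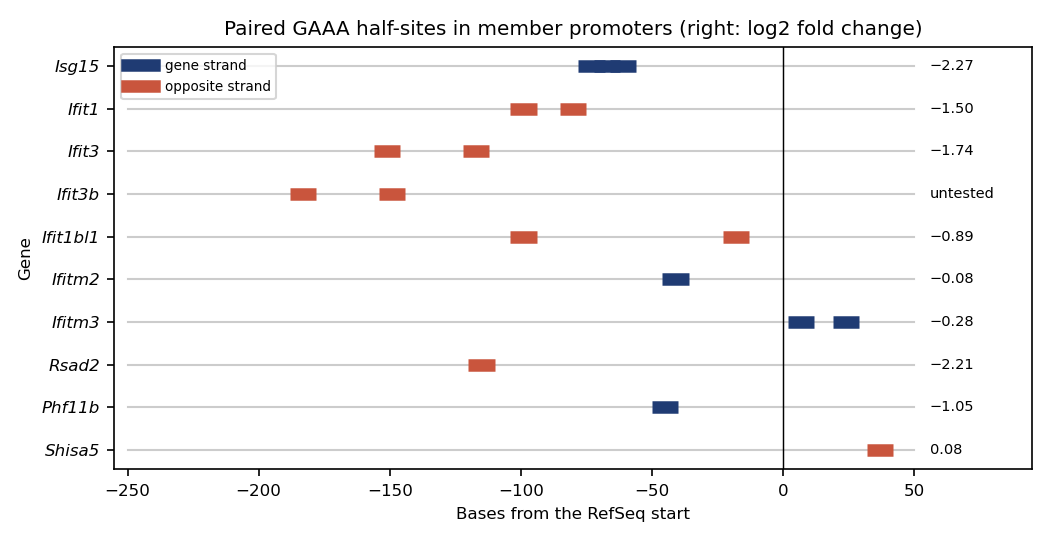
Place of each GAAA pair in the 10 member promoters that hold it, with genes on the vertical axis, distance from the RefSeq start in bases on the horizontal axis, blue bars for matches on the strand of the gene, red bars for the opposite strand and log2 fold changes at the right. The pair begins 50 bases before the start in Phf11b and 66, 72 and 78 bases before it in Isg15.

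Of the 9 tested members with a GAAA pair 2 passed lower, with a median log2 fold change of −1.05, and of the 23 tested members with an entry but no pair 7 passed lower, with a median of −0.51. The same split of all tested genes with an entry gave 7.51% of 373 genes with the pair and 1.76% of 8941 without it passing lower, with medians of −0.06 and −0.01. Genes with the AP-1 motif passed lower in 2.73% of 549 and genes without it in 1.94% of 8765. Of the tested members 1 of 6 with the AP-1 motif and 8 of 26 without it passed lower, with medians of −0.78 and −0.73. For TTCNNNGAA the counts were the same, 1 of 6 and 8 of 26, and the medians were −0.20 with the motif and −0.89 without it. Among all tested genes 1.84% of 762 with TTCNNNGAA and 2% of 8552 without it passed lower.

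ISG15 conjugation runs through an activating enzyme, a conjugating enzyme and ligases, as ubiquitin conjugation does. Isg15 (ENSMUSG00000035692.6, chr4:156199424-156200818, minus strand), the ubiquitin-like tag itself, read 24.6, 20.0 and 12.7 CPM (fl/fl 1, 2, 3) against 2.64, 5.79 and 3.48 CPM (Δ/Δ 1, 2, 3). Every Δ/Δ library was low, and the nearest values, in fl/fl 3 and Δ/Δ 2, did not touch. It fell by 2.27 on the log2 scale (SE 0.35, adjusted p = 0.0187). Ube2l6 (ENSMUSG00000027078.14, chr2:84798828-84810335, plus strand), the conjugating enzyme, read 52.3, 50.1 and 39.7 CPM against 18.9, 25.9 and 20.2 CPM. The groups were again apart, with fl/fl 3 lowest on its side and Δ/Δ 2 highest on the other. It fell by 1.13 (SE 0.16, adjusted p = 0.0131). Herc6, the main ISG15 ligase of the mouse, read 13.5, 12.6 and 11.5 CPM against 3.85, 5.18 and 7.66 CPM, without overlap, and missed the threshold (−1.17, adjusted p = 0.0509), which it met without Δ/Δ 1 (0.0285) and Δ/Δ 3 (0.0189). Of its exon bases 13.7% are shared with Gm45193. The activating enzyme Uba7 (−0.28, adjusted p = 0.226) had no overlap either, and the RIG-I ligase Trim25 (−0.06) did overlap. The 5 genes had a median log2 fold change of −1.13. Without fl/fl 1 and fl/fl 2 the adjusted p became 0.0990 and 0.103 for Isg15 and 0.0837 and 0.0836 for Ube2l6, and without Δ/Δ 3 it was 0.0591 for Isg15.

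IFIT proteins bind viral RNA that lacks the cap methylation of the host and stop its translation. Ifit2 (ENSMUSG00000045932.12, chr19:34550694-34576419, plus strand) was the most abundant of the 5 per kilobase, and read 25.8, 21.1 and 13.3 CPM (fl/fl 1, 2, 3) against 7.30, 5.60 and 9.87 CPM (Δ/Δ 1, 2, 3). The fl/fl values spread widely and the lowest of them, in fl/fl 3, was near that of Δ/Δ 3. It fell by 1.40 (SE 0.29, adjusted p = 0.0484), close to the threshold, with adjusted p of 0.192, 0.189, 0.0698 and 0.0554 without fl/fl 1, fl/fl 2, Δ/Δ 2 and Δ/Δ 3 and 0.0623 in limma-voom. The others were read at few counts. Ifit1 (−1.50, adjusted p = 0.135) stood at 2.28, 1.37 and 0.976 CPM against 0.325, 0.747 and 0.573 CPM, without overlap. Ifit3 (−1.74, adjusted p = 0.261) stood at 3.78, 3.08 and 0.467 CPM against 0.487, 0.513 and 1.19 CPM. Here fl/fl 3 lay below all 3 Δ/Δ libraries. Ifit1bl1 (−0.89, adjusted p = 0.543) also overlapped. Ifit3b was left untested, with 46 reads over the fl/fl and 7 over the Δ/Δ libraries, a ratio of 0.169 after scaling (exact 95% interval for counting error only, 0.0644 to 0.377). Ifit3 and Ifit3b are 97.8% identical over 1700 transcript bases, so that reads common to both were lost and the remainder is uncertain for each.

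IFITM proteins hinder the fusion of viral and cell membranes, and MX proteins are dynamin-like GTPases that trap viral nucleocapsids. Mx1 (ENSMUSG00000000386.15, chr16:97447035-97462907, minus strand) read 165, 159.5 and 147 CPM (fl/fl 1, 2, 3) against 83.6, 83.9 and 99.2 CPM (Δ/Δ 1, 2, 3). Both groups were tight and far apart. It fell by 0.82 (SE 0.09, adjusted p = 0.00472), under the fold limit of a call, and passed the adjusted p in each of the 6 fits that left out 1 library, with 0.0464 the highest. Mx2 read 17.8, 17.7 and 15.9 CPM against 13.0, 11.7 and 14.8 CPM, without overlap, and did not pass (−0.38, adjusted p = 0.152). The copies are 94.8% identical over 920 bases. Ifitm3 read 277, 288 and 363 CPM against 238, 174 and 352 CPM (−0.28, adjusted p = 0.570), with Δ/Δ 3 among the fl/fl values. Ifitm2 overlapped fully (−0.08), and 40.9% of its exon bases are shared with Gm45717 on the same strand, where reads cannot be assigned. The 4 genes had a median of −0.33.

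Enzymes of nucleotides and RNA split in a similar way. Cmpk2 (ENSMUSG00000020638.8, chr12:26469204-26479837, plus strand), a mitochondrial nucleotide kinase, read 19.7, 18.7 and 13.5 CPM (fl/fl 1, 2, 3) against 8.28, 3.78 and 6.25 CPM (Δ/Δ 1, 2, 3). All Δ/Δ values were lower, with Δ/Δ 1 nearest to fl/fl 3. It fell by 1.50 (SE 0.29, adjusted p = 0.0376), with adjusted p of 0.172, 0.166, 0.0745 and 0.0955 without fl/fl 1, fl/fl 2, fl/fl 3 and Δ/Δ 3. Rsad2, which lies 12.8 kb from Cmpk2 and encodes viperin, the enzyme that makes a chain-terminating nucleotide from CTP, read 5.48, 5.01 and 2.50 CPM against 0.284, 0.980 and 1.54 CPM. The groups did not overlap, yet the spread within each was wide and it did not pass (−2.21, SE 0.57, adjusted p = 0.0863). Without Δ/Δ 1, the library where it was lowest, its adjusted p was 0.0456 at a log2 fold change of −1.77. Samd9l, a restriction factor of poxviruses, read 493, 485 and 507 CPM against 581, 516 and 609 CPM. All 3 Δ/Δ values were higher, by a small amount that did not pass (0.20, adjusted p = 0.185), though it did without Δ/Δ 2 (0.27, adjusted p = 0.0455). The exonuclease gene Isg20 (−0.49), the RNA helicase gene Znfx1 (−0.24) and the dNTP hydrolase gene Samhd1 (−0.07) did not pass. The 6 genes had a median of −0.36.

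PARP enzymes attach ADP-ribose to proteins and nucleic acids, and DTX3L is a ubiquitin ligase that works in a complex with PARP9. In all 5 genes the Δ/Δ values lay under the fl/fl values. Parp12 (ENSMUSG00000038507.6, chr6:39086410-39118349, minus strand) read 111, 109 and 75.1 CPM (fl/fl 1, 2, 3) against 35.7, 33.9 and 41.8 CPM (Δ/Δ 1, 2, 3). The Δ/Δ values were close together, and fl/fl 3 was the lowest fl/fl library. It fell by 1.41 (SE 0.16, adjusted p = 0.00687) and passed in each of the 6 fits that left out 1 library, with 0.0493 the highest adjusted p. Parp14 (ENSMUSG00000034422.14, chr16:35832874-35871544, minus strand) read 159, 169 and 140.1 CPM against 97.8, 104 and 113 CPM. Its groups were also apart. It fell by 0.57 (SE 0.09, adjusted p = 0.0188), with adjusted p of 0.113 and 0.103 without fl/fl 1 and fl/fl 2. Parp9 (−0.40, adjusted p = 0.0652), Dtx3l (−0.31, adjusted p = 0.0782) and Parp10 (−0.51, adjusted p = 0.111, and 0.0404 without Δ/Δ 3) did not pass. Parp9 and Dtx3l overlap on opposite strands over 9.4% and 8% of their exon bases, and Parp14 lies 55.0 kb from Dtx3l.

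PML bodies are nuclear assemblies that hold viral genomes and whose scaffold, PML, recruits SP100 and the chaperone DAXX. Pml (ENSMUSG00000036986.16, chr9:58218076-58249786, minus strand) read 136, 134 and 95.1 CPM (fl/fl 1, 2, 3) against 58.1, 64.5 and 80.7 CPM (Δ/Δ 1, 2, 3). There was no overlap, with fl/fl 3 and Δ/Δ 3 nearest to each other. It fell by 0.85 (SE 0.17, adjusted p = 0.0433), with adjusted p of 0.194, 0.192 and 0.0723 without fl/fl 1, fl/fl 2 and Δ/Δ 2. Sp100 read 358, 369 and 305 CPM against 256, 203 and 266 CPM, without overlap (−0.51, adjusted p = 0.0673). It passed without Δ/Δ 1 (adjusted p = 0.0453). Daxx overlapped (−0.19, adjusted p = 0.276).

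Nmi was grouped with Ifi27, Ifi27l2a, Ifi35, Ifi44 and Ifi44l, and the median log2 fold change of these 6 genes was −0.10. Nmi (ENSMUSG00000026946.9, chr2:51948487-51973494, minus strand), whose product binds STAT proteins and the product of Ifi35, read 23.8, 20.5 and 19.8 CPM (fl/fl 1, 2, 3) against 7.34, 6.16 and 6.21 CPM (Δ/Δ 1, 2, 3). Each group was tight and the gap between them was wider than either. It fell by 1.70 (SE 0.13, adjusted p = 0.00205) and passed in each of the 6 fits that left out 1 library, with 0.0208 the highest adjusted p. Its partner Ifi35 (−0.12, adjusted p = 0.408) overlapped, as did Ifi27 (−0.07, adjusted p = 0.865). Ifi27l2a, 1.93 kb from Ifi27, read 128, 97.0 and 66.0 CPM against 54.1, 29.4 and 57.7 CPM. Its values did not overlap and did not pass (−1.04, adjusted p = 0.123).

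Ifi44l (ENSMUSG00000039146.5, chr3:151758737-151762892, minus strand) went the other way. It had 0 reads in all 3 fl/fl libraries, a floor of 3 reads pooled over them or 0.0392 CPM, and 75.8, 44.9 and 43.3 CPM in Δ/Δ 1, 2 and 3, from 1869, 963 and 983 reads. Every Δ/Δ library held it and no fl/fl library did. The Δ/Δ mean was at least 1394-fold higher than the pooled floor, a bound on counting error alone since duplicate fragments were counted too (adjusted p = 0.00201, with 0.0127 the highest in the 6 fits that left out 1 library). Its neighbour Ifi44, 8.78 kb away on the same strand, read 71.4, 67.6 and 37.4 CPM against 142, 76.1 and 72.9 CPM. All Δ/Δ values were higher, most of all in Δ/Δ 1, and the difference did not pass (0.72, SE 0.33, adjusted p = 0.284). Within 1 Mb of Ifi44l there were 9 tested genes, with a median log2 fold change of 0.22, and 1 of them, Miga1 at 511 kb, passed as higher. Miga1 read 16.5, 17.9 and 17.6 CPM against 32.7, 35.6 and 26.5 CPM (0.87, adjusted p = 0.0153), with adjusted p of 0.0985, 0.0877 and 0.0632 without fl/fl 1, 2 and 3. What sets the level of Ifi44l was not tested.

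**Figure D3:**
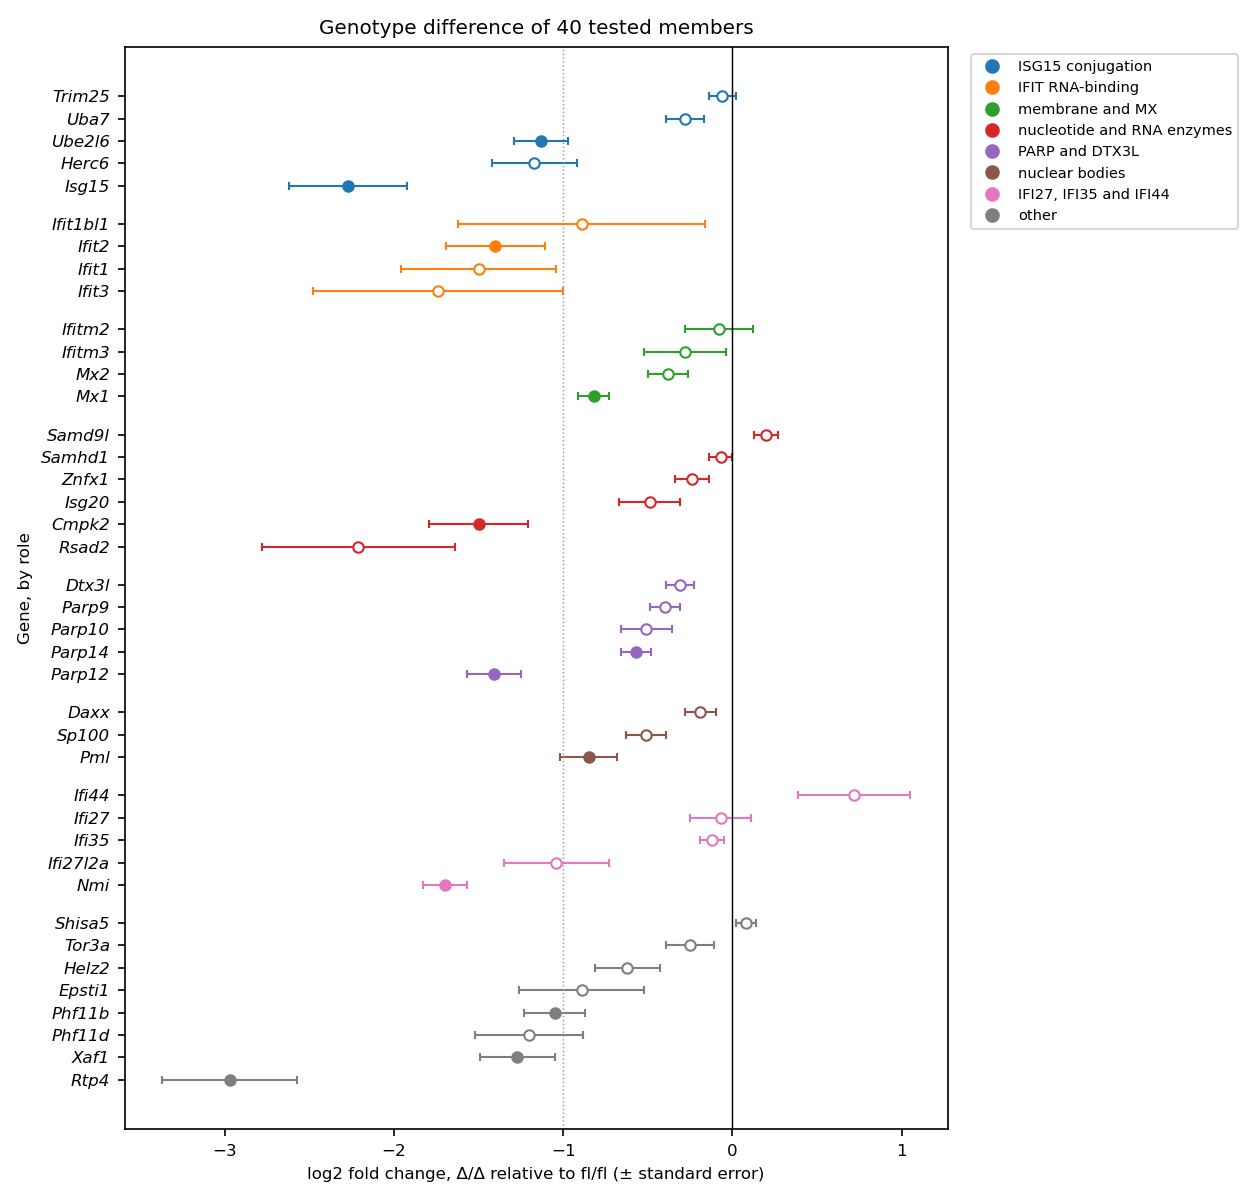
Log2 fold change of Δ/Δ relative to fl/fl for 40 tested members on the horizontal axis, with bars for the standard error, genes in order of role, filled circles for an adjusted p under 0.05, open circles for the others and a dotted line at −1. Isg15 (−2.27), Rtp4 (−2.97) and Nmi (−1.70) stand farthest to the left among filled circles, and Ifi44l is left out because its fitted value is no bound.

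The last 9 genes have varied roles, and 3 of the 8 tested were called lower. Rtp4 (ENSMUSG00000033355.6, chr16:23520291-23614222, plus strand), a chaperone of membrane receptors, read 4.44, 3.04 and 2.80 CPM (fl/fl 1, 2, 3) against 0.446, 0.233 and 0.617 CPM (Δ/Δ 1, 2, 3). The lowest fl/fl value was well above the highest Δ/Δ value, though the Δ/Δ values rest on 11, 5 and 14 reads. It fell by 2.97 (SE 0.40, adjusted p = 0.0116), with adjusted p of 0.0730 and 0.0645 without fl/fl 1 and fl/fl 2, and 13.9% of its exon bases are shared with Gm45338. Phf11b (ENSMUSG00000091649.3, chr14:59320964-59341351, minus strand), of a family of PHD finger genes, read 139, 125 and 120.2 CPM against 44.1, 71.7 and 70.7 CPM. The groups were apart and Δ/Δ 1 was lowest. It fell by 1.05 (SE 0.18, adjusted p = 0.0256), with adjusted p of 0.139, 0.124 and 0.0804 without fl/fl 1, 2 and 3, and log2 fold changes under the limit of a call without fl/fl 1 (−0.98) and Δ/Δ 1 (−0.85). Its transcript is 97.0% identical to that of Phf11a over 864 bases, so its reads are uncertain. Phf11d, 6.06 kb away, read 10.3, 8.01 and 8.27 CPM against 2.11, 4.76 and 4.76 CPM, without overlap (−1.20, adjusted p = 0.0911, and 0.0287 without Δ/Δ 1).

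Xaf1 (ENSMUSG00000040483.15, chr11:72301629-72313733, plus strand), which encodes an antagonist of the caspase inhibitor XIAP, read 32.3, 34.7 and 25.7 CPM (fl/fl 1, 2, 3) against 14.0, 8.82 and 15.6 CPM (Δ/Δ 1, 2, 3). The 3 Δ/Δ values were all lower. It fell by 1.27 (adjusted p = 0.0262), with adjusted p of 0.133, 0.132 and 0.0581 without fl/fl 1, 2 and 3. Epsti1 read 143, 104 and 112 CPM against 31.7, 100.3 and 61.5 CPM. Δ/Δ 2 came close to the fl/fl range and Δ/Δ 1 was far under it, and the difference did not pass (−0.89, SE 0.37, adjusted p = 0.249), though it did without Δ/Δ 2 (−1.36, adjusted p = 0.0461). Helz2, a helicase gene, showed the same order, at 125, 127 and 127 CPM against 59.8, 108 and 79.5 CPM (−0.62, adjusted p = 0.134, and 0.0144 without Δ/Δ 2). Tor3a (−0.25, adjusted p = 0.393, and 0.0460 without Δ/Δ 1) and Shisa5 (0.08, adjusted p = 0.561) overlapped. Tnfsf10, the gene of the death ligand TRAIL, was left untested with 35 reads over the fl/fl and 2 over the Δ/Δ libraries, a ratio of 0.0635 (exact 95% interval for counting error only, 0.00740 to 0.247).

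Tested genes within 1 Mb were read around the other members past the adjusted p as well. Mx1, Parp12, Ifit2, Cmpk2, Ube2l6 and Pml had 7, 22, 9, 3, 13 and 16 such genes, of which 0 passed in either direction. Their medians were 0.04, −0.03, −0.73, −0.26, −0.15 and 0.06. Over all tested genes 1.85% passed as lower and 2.03% as higher. Isg15 had 43 such genes (median 0.05), with 3 lower and 1 higher past the adjusted p. The nearest of these, AW011738 at 2.49 kb, had 2.43, 2.00 and 0.933 CPM (fl/fl 1, 2, 3) against 0.284, 0.327 and 0.396 CPM (Δ/Δ 1, 2, 3). It fell by 2.40 (adjusted p = 0.0345), with adjusted p of 0.162, 0.159, 0.0619 and 0.0833 without fl/fl 1, fl/fl 2, Δ/Δ 2 and Δ/Δ 3 and 0.0690 in limma-voom. Cfap74, in the same window, had 1.27, 1.82 and 1.15 CPM against 0.0406, 0 and 0 CPM (adjusted p = 0.00672, with 0.0493 the highest in the 6 fits that left out 1 library). Phf11b had 11 such genes (median −0.09), of which Phf11c, 39.5 kb away, passed as lower, at 25.1, 26.6 and 21.7 CPM against 13.1, 13.6 and 14.0 CPM (−0.85, adjusted p = 0.0101, with 0.0737 and 0.0709 without fl/fl 1 and fl/fl 2). Nmi, Rtp4, Xaf1 and Parp14 had 8, 13, 22 and 22 such genes (medians −0.15, −0.01, −0.05 and 0.03), with 1 lower past the adjusted p for each. These 4 genes missed the threshold without fl/fl 1, 2 or 3, where their lowest adjusted p was 0.0945, 0.0992 and 0.0763.

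Members read at lower levels had larger fold changes. Of the 8 tested members with a mean under 10 CPM over the 6 libraries 1 was lower at an adjusted p under 0.05, where 1.45% of tested genes at that level were, and the members' median log2 fold change was −1.35. Between 10 and 50 CPM 6 of 10 were lower, against 1.80% of tested genes (median −1.20), and from 50 CPM on 5 of 23, against 2.29% (median −0.28). All tested genes in these ranges had medians of 0.02, −0.01 and 0.01. Per kilobase of exon, the scale on which genes can be compared, Ifitm3 was the most abundant member in both genotypes, at means of 456 (fl/fl) and 376 (Δ/Δ) CPM per kb. Isg15 went from 25.2 CPM per kb, rank 14 of 43, to 5.25 CPM per kb and rank 27. Rtp4 went from 1.61 to 0.203 CPM per kb and from rank 35 to 41. Ifi44l stood last in fl/fl libraries and at rank 9 in Δ/Δ libraries, with 39.7 CPM per kb.

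**Figure D4:**
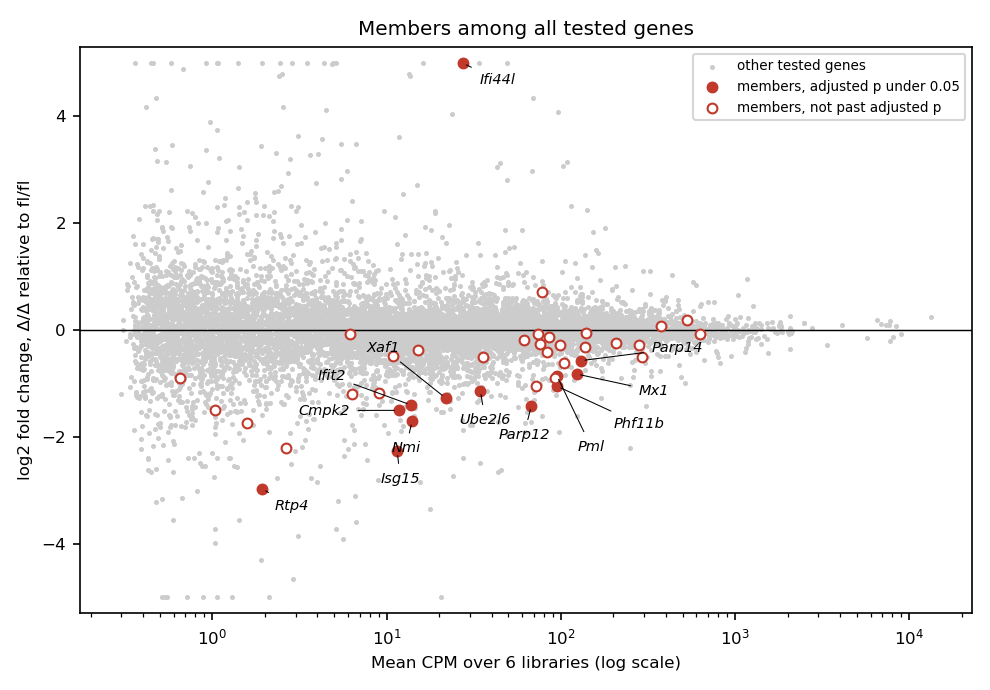
Log2 fold change of Δ/Δ relative to fl/fl on the vertical axis against mean CPM over 6 libraries on a logarithmic horizontal axis for the 12894 tested genes, with members in red, filled where the adjusted p was under 0.05, and changes beyond 5 in size drawn at 5. The members called lower sit mostly between 10 and 50 CPM, where 6 of 10 were called.

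The genes upstream of these effectors were read from a list of 62, of which 39 were tested. The 21 listed interferon ligand genes, among them Ifnb1, had 0 reads in all 6 libraries, which allows up to 0.0392 CPM (fl/fl) or 0.0436 CPM (Δ/Δ) for each. The receptor gene Ifnar1 had 288, 281 and 311 CPM (fl/fl 1, 2, 3) against 285, 349 and 351 CPM (Δ/Δ 1, 2, 3), with overlap (0.16, adjusted p = 0.388), and Ifnar2 overlapped too (−0.07, adjusted p = 0.765). Stat2 (−0.02, adjusted p = 0.939) and Irf9 (−0.21, adjusted p = 0.250) overlapped.

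Irf7, the interferon-induced factor that drives interferon and effector genes, had 113, 94.0 and 77.1 CPM (fl/fl 1, 2, 3) against 24.6, 27.3 and 45.3 CPM (Δ/Δ 1, 2, 3). It was low in every Δ/Δ library and fell by 1.54 (SE 0.25, adjusted p = 0.0209). Usp18, which takes ISG15 off proteins and dampens the receptor, had 56.3, 51.2 and 34.7 CPM against 19.2, 15.4 and 21.6 CPM. It too was apart between the groups and fell by 1.34 (adjusted p = 0.0177). Among sensors of viral nucleic acid, Ddx58 (−1.34, adjusted p = 0.0414), Dhx58 (−0.67, adjusted p = 0.0187), Eif2ak2 (−0.89, adjusted p = 0.0168), Zbp1 (−1.43, adjusted p = 0.0325) and Tlr3 fell. Altogether 8 of the 39 passed as lower and 0 as higher in edgeR, with 12 lower and 3 higher at an unadjusted p under 0.05, and 9 lower and 1 higher in DESeq2. Without fl/fl 1 and without fl/fl 2, 0 of the 39 passed in edgeR, with 11 at an unadjusted p under 0.05 in either fit. The count was 11 without Δ/Δ 1 (8 lower and 3 higher) and 5 without Δ/Δ 3, where Ddx58 (0.0518), Zbp1 (0.0931) and Eif2ak2 (0.0529) missed the threshold. Ddx58 also missed it without fl/fl 3 (0.0937) and Δ/Δ 2 (0.0546), and Tlr3 without fl/fl 3 (0.0885).

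The counts of members depended on which fl/fl library was present. Members called lower numbered 9 with all libraries, 2, 2 and 6 without fl/fl 1, 2 or 3, then 9, 9 and 7 without Δ/Δ 1, 2 or 3. Among all tested genes 112 were called lower with all libraries. The fits without 1 library, which tested 13205 to 13332 genes, called 33, 37 and 67 lower, then 333, 219 and 93. Members lower at the adjusted p alone numbered 12 with all libraries, 3, 3 and 9 without fl/fl 1, 2 or 3, then 17, 12 and 11 without Δ/Δ 1, 2 or 3. At the adjusted p alone, over all tested genes and both directions, the same fits passed 95, 95 and 201 genes, then 1320, 719 and 352. In these fits the adjusted p stayed under 0.05 throughout for 4 members, Nmi, Parp12, Mx1 and Ifi44l. The share of all tested genes that did so was not counted. The median log2 fold change of the tested members was −0.56, −0.52 and −0.64 without fl/fl 1, 2 or 3, then −0.55, −0.78 and −0.67 without Δ/Δ 1, 2 or 3.

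**Figure D5:**
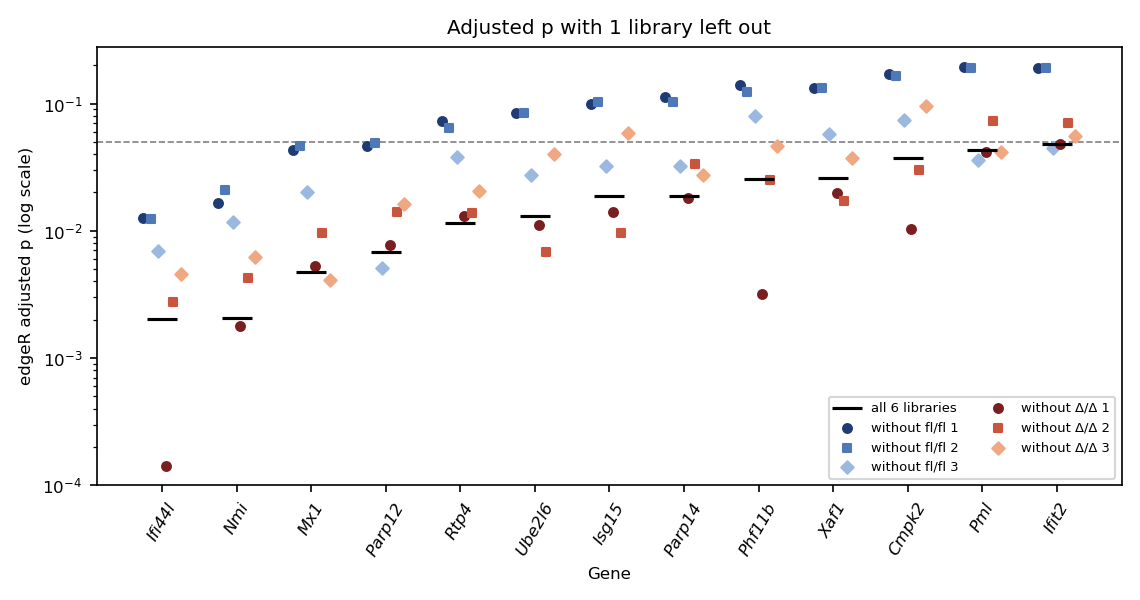
Adjusted p from edgeR on a logarithmic vertical axis for the 13 members that passed with all libraries, where black bars stand for all 6 libraries, coloured points for fits without 1 library, and the dashed line for 0.05. Points for Ifi44l, Nmi, Mx1 and Parp12 lie under the line throughout, up to 0.0493 for Parp12 without fl/fl 2.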

How the data were processed

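According to the methods, the authors aligned paired-end reads of a directional poly(A) library to mm10 with STAR 2.6.1a and GENCODE vM19 and deposited unnormalised counts of uniquely mapped reads per gene, 1 table per library, so genes that share sequence lose reads; the strand column was not given in the sources used here. Names came from GENCODE M21 (54495 of 54532 identifiers matched). The 43 members and all lists were chosen with earlier results of these data known. Counts were fitted in R 4.3.3 with edgeR 4.0.16 (TMM, filterByExpr with at least 10 reads, quasi-likelihood F test, common coefficient of variation 0.181). Calls needed an adjusted p under 0.05 and a log2 change of 1 or more up or down. Members past the adjusted p were named with all values, with full statistics for the 2 of each role with the smallest p, as were members above 0. Alternatives were DESeq2 1.42.0 (size factors in edgeR, and Wald test), limma 3.58.1 voom, no filter, a stricter filter, the replicate number as a term and each library left out. For pathway counts, and for left-out libraries in the overlap counts, they were chosen after seeing the data. Transcript identity came from BLAST+ 2.17.0. The labels do not say whether libraries come from separate animals or cultures. A legend in the study's supplement counts individual mice for these samples without matching them to libraries. If libraries shared an animal or a culture, p-values would measure only the spread between these samples.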

Additional observations from a re-analysis of the deposited data

How the results depend on the processing

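With DESeq2 size factors, all 28 named genes kept their direction and side of the threshold, as they did with the stricter filter. 27 did so in the DESeq2 Wald test and without the filter (Junb passed in both), and 25 in limma-voom. The DESeq2 Wald test passed 21 members as lower, where edgeR passed 12 and DESeq2 3.86% of tested genes, and the cause was not tested. Without 1 library, members called lower ranged from 2 to 9, where 33 to 333 of all tested genes were called lower. Members lower at the adjusted p ranged from 3 to 17 and pathway genes past it from 0 to 11. The median of the tested members ranged from −0.78 to −0.52. Members without overlap ranged from 26 to 32 (15.1 to 23.3% of tested genes in these comparisons, 12.3% with all libraries). The fewest calls came without fl/fl 1 or fl/fl 2. Stat2 ranged from −0.13 to 0.09, with its sign changed to 0.01 without fl/fl 2 and 0.09 without Δ/Δ 1, and passed in none of these fits. When the 50 bases after the start were left out, TTCNNNGAA was in 3 members instead of 6, by construction. The GAAA pair was then in 8 members instead of 10. Deviations of same-numbered libraries from their genotype means gave r of 0.091, −0.148 and 0.2. Differently numbered libraries gave r from −0.221 to 0.152. With 3 libraries per genotype, these values cannot tell whether the numbers pair libraries. With the replicate block, 5 pathway genes passed instead of 8, 6 members were called lower and 8 were lower at the adjusted p. Those that did not pass in this fit were Ifit2 (adjusted p = 0.0895), Pml (0.0922), Xaf1 (0.0592) and Phf11b (0.0512), and among pathway genes Irf7 (0.0508) and Ddx58 (0.0799) did not.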
